A study of Mus with 10 samples.

Results

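Embigin (*Emb*), basigin (*Bsg*) and the lactate transporters MCT1 (*Slc16a1*) and MCT4 (*Slc16a3*) were followed in liver type 1 innate lymphoid cells (ILC1s) with and without an intact *Ncr1*, the gene of the activating receptor NKp46. The 4 genes were taken by name as monocarboxylate transporters and their chaperones, from a table of read counts for 24564 genes. They were chosen with their difference between the genotypes already known, so the values of that difference are given as a description and not as a test.

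ILC1s were sorted from the livers of C57BL/6 mice, aged 6 to 8 weeks and of either sex by the methods, and RNA was read from 5 *Ncr1+/+* and 5 *Ncr1gfp/gfp* libraries. The study's reporting form gives a wider range of ages with the same lower limit. In *Ncr1gfp/gfp* mice *gfp* stands in place of *Ncr1* in every cell of the body, so that their ILC1s carry GFP in the place of NKp46. The paper reports negligible NKp46 on these ILC1s, with a few percent of them positive. *Ncr1+/+* ILC1s were sorted as lineage-negative NK1.1+ NKp46+ CD49b- CD49a+ cells and *Ncr1gfp/gfp* ILC1s with GFP in the place of NKp46, so the gates differed between the genotypes. The sources do not say whether each library came from a single mouse, so the spread between libraries may be in part technical.

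Lactate and pyruvate cross the plasma membrane through the proton-coupled monocarboxylate transporters of the SLC16 family. MCT1 is widely expressed and carries lactate in either direction, whereas MCT4 has a low affinity for lactate and is typical of cells that export it from glycolysis. Neither reaches the cell surface without a chaperone of the immunoglobulin superfamily. Basigin, also called CD147, is the usual partner of MCT1 and MCT4, embigin can take its place, and neuroplastin (*Nptn*) is the third member of this small family.

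Libraries held 15796253 to 22623133 counts. *Ncr1* had between 1913 and 2144 CPM (counts per 1000000 reads on genes, with TMM normalization) in *Ncr1+/+* and between 141 and 356 CPM in *Ncr1gfp/gfp* libraries, in the direction of the labels. Of 7 ILC1 markers, 6 were tested, with 3 log2 fold changes above and 3 below 0, between -0.19 and 0.32. The highest was that of *Itga1*, at 732 CPM or more in every library and the 1 marker at an adjusted p under 0.05 in edgeR's test. The summed ILC1 markers were between 3790 and 4066 CPM in *Ncr1+/+* and between 3928 and 4136 CPM in *Ncr1gfp/gfp* libraries. The Y-linked gene *Ddx3y* was at 133 CPM or more and *Xist* at 1.09 CPM or less in every library, so all 10 libraries had the pattern of male cells. Of 6 T cell markers, 5 were tested and *Cd3e*, *Cd3g* and *Cd8a* were higher in *Ncr1gfp/gfp* ILC1s at an adjusted p under 0.05 in edgeR's quasi-likelihood test. The summed T cell markers were between 461 and 579 CPM in *Ncr1+/+* and between 632 and 835 CPM in *Ncr1gfp/gfp* libraries, most of it *Cd3g*. Of 6 NK cell markers, *Itgam* alone was higher, and the summed list was between 100.4 and 126 CPM against between 138 and 217 CPM. Tested were 1 of 4 B cell, 5 of 5 macrophage, 0 of 3 neutrophil, 1 of 5 red cell, 2 of 5 hepatocyte and 2 of 4 endothelial markers. Of those tested, 0 had an adjusted p under 0.05 in edgeR's test, where 1.35% of all tested genes did. Only *Apoa1* had an unadjusted p under 0.05. The neutrophil genes *S100a8* and *S100a9*, below the filter, had 58 and 130 reads in *Ncr1gfp/gfp* replicate 3. They had 17 reads or fewer in every other library. *Hba-a1*, *Hbb-b1* and *Hbb-bt* had 0 reads in every library. *Ncr1+/+* replicate 1 and *Ncr1gfp/gfp* replicate 3 held the most hepatocyte RNA, with 28.0 and 38.0 CPM of *Alb* against 4.69 CPM or less in the other libraries. The part of these markers in the results that follow was not tested.

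*Emb* is listed at chr13:118009380-118063222, plus strand, in coordinates whose genome build the table does not name. It was lower in *Ncr1gfp/gfp* ILC1s. In *Ncr1+/+* replicates 1 to 5 the CPM of *Emb* was 35.0, 23.5, 23.5, 24.7 and 21.8. In *Ncr1gfp/gfp* replicates 1 to 5 it was 19.0, 4.30, 7.68, 12.4 and 13.6. Every *Ncr1gfp/gfp* library was below every *Ncr1+/+* library, with *Ncr1gfp/gfp* replicate 1 closest to the other genotype and replicate 2 farthest from it. The means were 25.7 ± 5.30 CPM in *Ncr1+/+* and 11.4 ± 5.67 CPM in *Ncr1gfp/gfp* ILC1s (SD, n = 5 each), so that 44.3% of the *Ncr1+/+* level was left. The log2 fold change was -1.18 with a standard error (SE) of 0.25 and a 95% interval from -1.68 to -0.69.

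Counting error was a small part of the spread of *Emb*. Its raw counts ran from 400 to 624 in *Ncr1+/+* and from 94 to 300 in *Ncr1gfp/gfp* libraries. In *Ncr1gfp/gfp* ILC1s the coefficient of variation of its CPM was 49.7%, where counting alone gives 7.16%, and the highest library was 4.43-fold above the lowest. In *Ncr1+/+* ILC1s it was 20.6%, with replicate 1 as the one library apart. Bulk RNA cannot tell apart fewer *Emb*-expressing cells from less *Emb* RNA per cell.

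*Bsg* is listed at chr10:79167103-79174724, plus strand. Its CPM was 71.3, 91.4, 98.0, 100.7 and 107 in *Ncr1+/+* replicates 1 to 5. In *Ncr1gfp/gfp* replicates 1 to 5 it was 90.7, 108, 95.3, 104 and 98.5. The genotypes overlapped, and the only library apart was *Ncr1+/+* replicate 1, which had the least *Bsg* and the most *Emb*. The means were 93.7 ± 13.7 and 99.3 ± 6.81 CPM (SD, n = 5 each). The log2 fold change of *Bsg* was 0.08 with a standard error of 0.09, and the 95% interval ran from -0.09 to 0.26.

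*Slc16a1*, which encodes MCT1, is listed at chr3:104442587-104462385, plus strand. It was the least counted of the 4 genes, with between 7 and 124 reads per library. Its CPM was 0.39, 3.22, 1.45, 3.18 and 5.82 in *Ncr1+/+* replicates 1 to 5. The *Ncr1gfp/gfp* libraries, in the same order, had 1.08, 5.67, 6.14, 1.37 and 3.03 CPM. The libraries of both genotypes were spread over the same range, and every one was above the 0.190 CPM or less that 3 counts correspond to. The coefficient of variation was 73.4% and 68.3%, where counting alone gives 13.4% and 12.3%. The log2 fold change of 0.30 had a standard error of 0.54, and its interval from -0.76 to 1.37 leaves room for a change in either direction at this depth and spread.

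*Slc16a3*, which encodes MCT4, is listed at chr11:120809798-120820314, plus strand. Its CPM was 10.9, 8.69, 14.5, 13.7 and 13.4 in *Ncr1+/+* replicates 1 to 5. In *Ncr1gfp/gfp* replicates 1 to 5 it was 9.84, 9.96, 9.79, 8.92 and 9.52. The *Ncr1gfp/gfp* libraries lay close together, and of the *Ncr1+/+* libraries only replicate 2 was below them. The means were 12.3 ± 2.41 and 9.61 ± 0.417 CPM (SD, n = 5 each). The coefficient of variation in *Ncr1gfp/gfp* ILC1s, 4.33%, was below the 7.59% that counting alone gives, while in *Ncr1+/+* ILC1s it was 19.7% against 6.45%. The log2 fold change of *Slc16a3* was -0.35 with a standard error of 0.16, and its 95% interval, which is not adjusted for the number of genes, ran from -0.67 to -0.03. *Slc16a3* did not reach an adjusted p under 0.05.

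**Figure D1:**
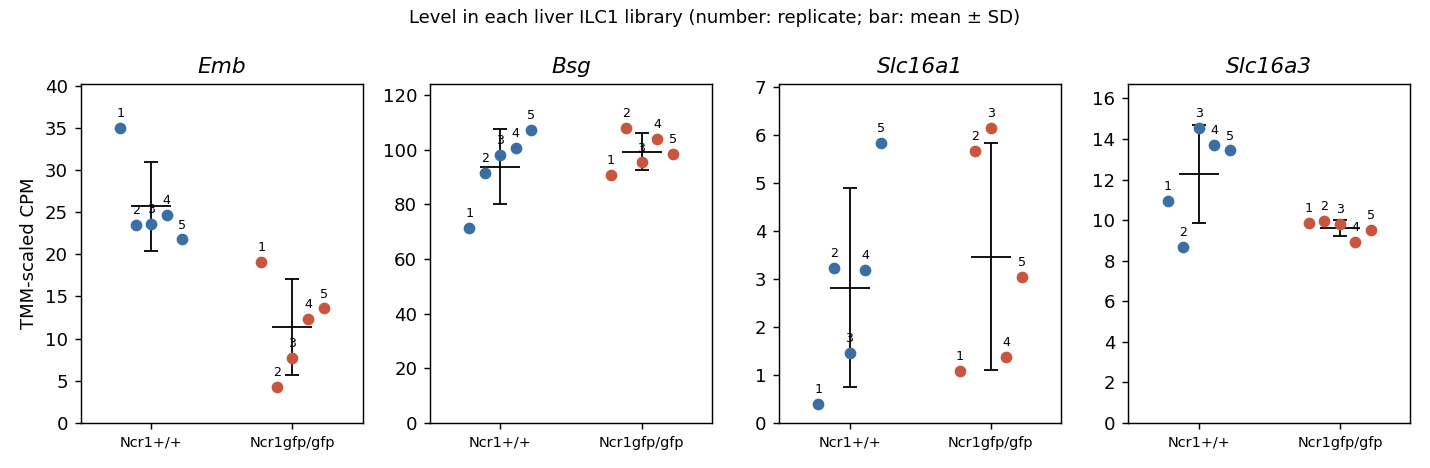
CPM of *Emb*, *Bsg*, *Slc16a1* and *Slc16a3* in each library, with the replicate number over each point and the mean and SD as a bar. *Emb* is the only one of the 4 whose genotypes do not overlap, and *Ncr1gfp/gfp* libraries of *Slc16a3* lie between 8.92 and 9.96 CPM.

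All 4 genes passed the filter on low counts. A gene was called at a Benjamini-Hochberg adjusted p under 0.05 over all tested genes, in edgeR's quasi-likelihood test, and a fold change above 1.5 or below 0.7. By this rule 1 of the 4 members, *Emb*, was called, where 84 of 11463 tested genes, or 0.733%, were called in either direction and 0.532% were called lower. Without overlap between the genotypes were 1 of the 4 members and 3.11% of all tested genes. The members were chosen on this comparison, so nothing is read from these counts. *Emb* lost its call without *Ncr1+/+* replicate 1, where its log2 fold change was -1.05, and without *Ncr1gfp/gfp* replicate 3, where it was -1.07. Without both of these libraries it was -0.94 and *Emb* was not called.

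Levels of different genes were compared as RPKM, the CPM per kilobase of exon length. Among the members *Bsg* had the highest and *Slc16a1* the lowest level in all 10 libraries. In *Ncr1+/+* ILC1s the RPKM was 53.5 ± 7.84 for *Bsg*, 9.80 ± 2.02 for *Emb*, 4.76 ± 0.936 for *Slc16a3* and 0.635 ± 0.466 for *Slc16a1* (SD, n = 5). In *Ncr1gfp/gfp* ILC1s it was 56.7 ± 3.89 for *Bsg*, 4.34 ± 2.16 for *Emb*, 3.73 ± 0.162 for *Slc16a3* and 0.781 ± 0.533 for *Slc16a1* (SD, n = 5). *Emb* was above *Slc16a3* in 5 of 5 *Ncr1+/+* libraries, with ranges that did not overlap, and in 3 of 5 *Ncr1gfp/gfp* libraries, with ranges that did.

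With neuroplastin included, the chaperone family held more *Nptn* than *Bsg* per length in 4 of 5 *Ncr1+/+* and 5 of 5 *Ncr1gfp/gfp* libraries, with overlapping ranges. *Nptn* had 167 ± 27.0 CPM in *Ncr1+/+* and 157 ± 18.6 CPM in *Ncr1gfp/gfp* ILC1s (SD, n = 5 each), which is -0.09 on the log2 scale (SE 0.10, adjusted p = 0.824 in edgeR). The summed RPKM of the 3 chaperones was 132 ± 6.50 in *Ncr1+/+* and 126 ± 9.06 in *Ncr1gfp/gfp* ILC1s. Of this sum, *Emb* made up 9.77%, 6.73%, 6.42%, 7.57% and 6.54% in *Ncr1+/+* replicates 1 to 5. The *Ncr1gfp/gfp* libraries, in the same order, had 6.39%, 1.31%, 2.41%, 3.57% and 3.78%. The genotypes did not overlap, although *Ncr1gfp/gfp* replicate 1 came close to the lowest *Ncr1+/+* library. The ratio of *Bsg* to *Emb* per length had a median of 6.11 in *Ncr1+/+* and of 12.6 in *Ncr1gfp/gfp* libraries, and here *Ncr1gfp/gfp* replicate 1, at 7.13, fell inside the *Ncr1+/+* range of 3.05 to 7.37.

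Of the 2 lactate transporters, *Slc16a3* made up most of the transcript. Its share of their summed RPKM was between 79.9% and 98.0% in *Ncr1+/+* libraries and between 73.3% and 94.0% in *Ncr1gfp/gfp* libraries. Neither was the most abundant SLC16 transcript. *Slc16a6*, which encodes the family member MCT7, had 45.2 ± 1.65 RPKM in *Ncr1+/+* and 47.8 ± 7.65 RPKM in *Ncr1gfp/gfp* ILC1s, a level next to that of *Bsg* and overlapping with it. *Slc16a10*, a transporter of aromatic amino acids, had 11.7 ± 1.00 and 14.2 ± 3.04 RPKM. In *Ncr1+/+* ILC1s its range overlapped with that of *Emb*, and in *Ncr1gfp/gfp* ILC1s it did not. *Slc16a13* and *Slc16a7*, which encodes MCT2, were at the level of *Slc16a1* or near it, with 1.33 ± 0.455 and 0.295 ± 0.158 RPKM in *Ncr1+/+* ILC1s. The other 8 *Slc16a* genes of the table were below the filter, and no library had more than 53 reads on any of them.

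**Figure D2:**
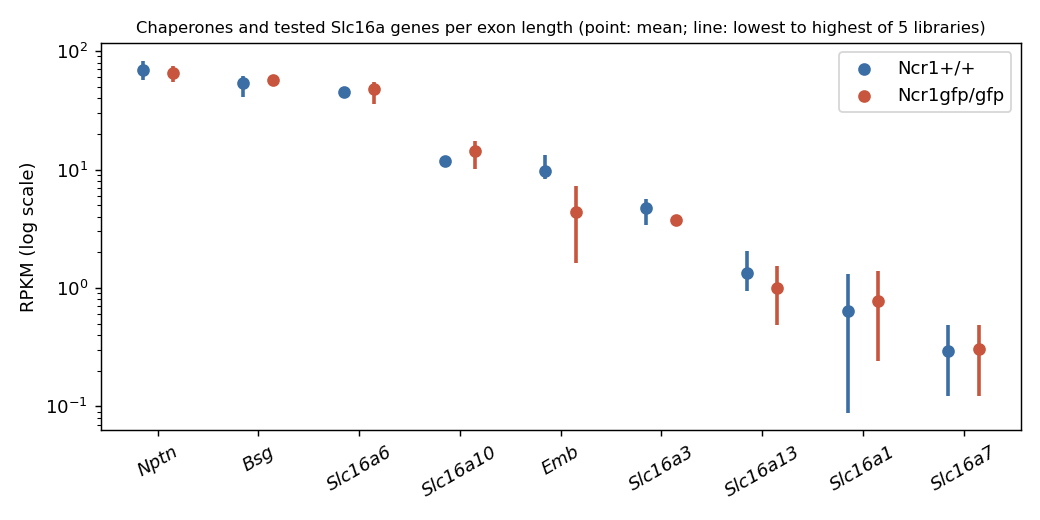
Mean RPKM, on a log scale, of the 3 chaperones and the tested *Slc16a* genes in each genotype, with a line from the lowest to the highest of 5 libraries. *Emb* is the gene of this family whose lines do not meet, at 8.30 RPKM or more in *Ncr1+/+* and 7.27 RPKM or less in *Ncr1gfp/gfp* ILC1s.

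The members differed in how they varied across libraries, and some pairs ran together while others ran against each other. With the mean of each genotype subtracted, the log2 CPM of *Emb* ran against that of *Slc16a1*, with Pearson r = -0.72 over 10 libraries. *Bsg* ran with *Slc16a1* at r = 0.73 and against *Emb* at r = -0.53. *Ncr1+/+* replicate 1 and *Ncr1gfp/gfp* replicate 1 had the most *Emb* and the least *Slc16a1* and *Bsg* of their genotypes. Without the 2 libraries farthest from the median of *Slc16a1*, which are these, r was -0.57 for *Emb* and 0.18 for *Bsg*, so the relation of *Bsg* to *Slc16a1* rests on them. *Slc16a3* had r of -0.15 with *Emb*, 0.43 with *Bsg* and 0.16 with *Slc16a1*, and these became -0.37, 0.70 and 0.75 without the 2 libraries farthest from its median. The 10 points of each relation come from the same libraries and share their depth and scaling, and these r are descriptions.

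**Figure D3:**
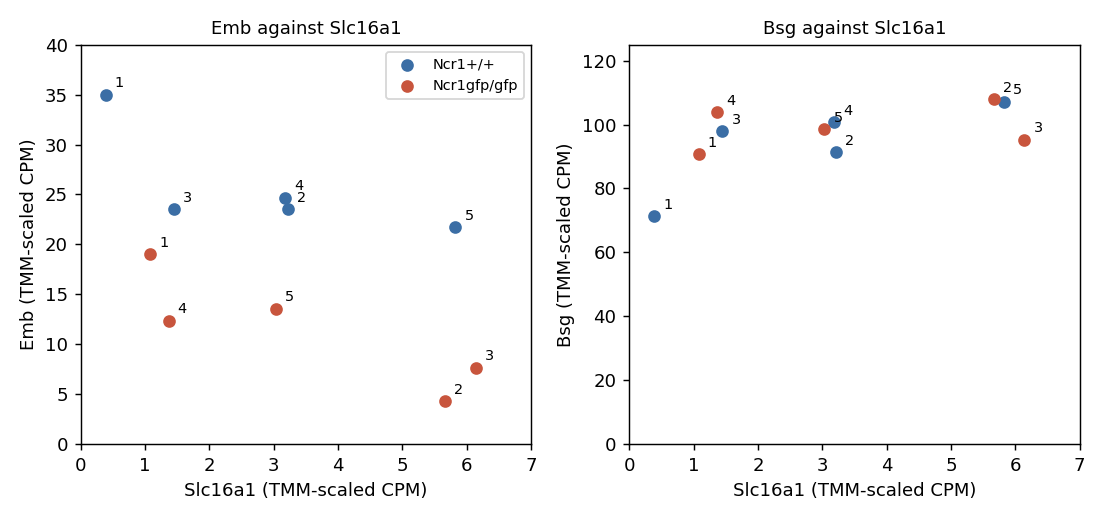
CPM of *Emb* (left) and *Bsg* (right) against *Slc16a1* in each library, with the replicate number beside each point. Within each genotype, replicate 1 has the least *Slc16a1* and the most *Emb*, and *Ncr1+/+* replicate 1 stands apart with 71.3 CPM of *Bsg*.

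Among the other tested genes, the 3 whose log2 CPM was most like that of *Emb* over the 10 libraries were *Kbtbd11*, *Il18rap* and *Kcnq5*, with Pearson r of 0.98, 0.96 and 0.94. *Il18rap* encodes the accessory chain of the IL-18 receptor. It had 442 ± 45.3 CPM in *Ncr1+/+* and 291 ± 51.3 CPM in *Ncr1gfp/gfp* ILC1s (SD, n = 5 each), or -0.60 on the log2 scale (SE 0.10, adjusted p = 0.00145 in edgeR). For *Kbtbd11* the log2 fold change was -0.55, with an adjusted p of 0.0206, and for *Kcnq5*, a potassium channel, it was -0.38, with an adjusted p of 0.368 in edgeR. These r include the difference between the genotypes. With the genotype means subtracted, the 3 most like *Emb* were *Nhsl1*, *Slc25a27* and *Cirbp*, with r of 0.97, 0.96 and 0.96, and none of them had an adjusted p under 0.743. *Nhsl1* had few counts, with 1.67 ± 0.514 CPM in *Ncr1+/+* and 1.46 ± 1.72 CPM in *Ncr1gfp/gfp* ILC1s. Both sets of 3 are the highest r over all tested genes on 10 libraries. Such a choice gives high values by itself, so nothing is read from their size.

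The genomic surroundings of *Emb* held other genes that differed. Of the 22 other tested genes whose start lies within 5 Mb of that of *Emb*, 4 had an adjusted p under 0.05, or 18.2%, where 1.35% of all tested genes did and 0.567% did so with a higher level in *Ncr1gfp/gfp* ILC1s. These were *Gpx8*, *Gzma*, *Itga1* and *Nnt*, and all 4 were higher in *Ncr1gfp/gfp* ILC1s, opposite to *Emb*. They were the only ones to pass among the 438 other tested genes of chromosome 13. None of them was among the 2 tested genes within 2 Mb of *Emb*. *Gpx8* and *Gzma* start close to each other, 4.18 and 4.13 Mb before *Emb*. *Nnt*, *Itga1* and *Itga2* were already named when the 5 Mb window was set, so nothing is read from its share. Around *Bsg*, *Slc16a1* and *Slc16a3*, the same window held 2 of 154, 0 of 77 and 2 of 104 genes at an adjusted p under 0.05 in edgeR's test. These were *Gadd45b* and *Gna15* near *Bsg* and *Cd7* and *Socs3* near *Slc16a3*. No other gene of the table overlaps any of the 4 members.

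*Nnt*, the mitochondrial transhydrogenase that makes NADPH, starts 2.11 Mb beyond *Emb*. Its CPM was 23.3, 34.4, 28.6, 28.8 and 33.3 in *Ncr1+/+* replicates 1 to 5. The *Ncr1gfp/gfp* libraries, in the same order, had 45.5, 56.2, 53.3, 48.5 and 43.6 CPM. The genotypes did not overlap, and the difference was 0.74 on the log2 scale (SE 0.11, adjusted p = 0.000858 in edgeR). *Nnt* is known for a deletion carried by the C57BL/6J substrain. The study's methods give C57BL/6 for both genotypes, and its reporting form gives C57BL/6J. By the methods *Ncr1+/+* mice were bought from The Jackson Laboratory, and for *Ncr1gfp/gfp* mice an earlier description is cited. The reporting form has the mice of both genotypes bought there. Counts per gene do not show which exons of *Nnt* were read, and the part of any difference in background in the values of *Emb* was not tested.

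*Itga1* encodes CD49a, one of the surface proteins used for sorting in both genotypes. It starts 2.26 Mb before *Emb*, and it had 779 ± 30.4 CPM in *Ncr1+/+* and 971 ± 35.1 CPM in *Ncr1gfp/gfp* ILC1s (SD, n = 5 each). The difference was 0.32 on the log2 scale (SE 0.04, adjusted p = 0.000481 in edgeR). *Itga2*, which encodes CD49b and lies beside it, had 40.5 ± 6.83 CPM in *Ncr1+/+* ILC1s and was 0.27 higher on the log2 scale, with an adjusted p of 0.331. *Gzma*, granzyme A, had 2931 ± 140 and 3976 ± 641 CPM, or 0.44 on the log2 scale (adjusted p = 0.00207 in edgeR). *Gpx8* was near the filter, at 0.874 ± 0.266 and 3.32 ± 1.37 CPM. Its log2 fold change of 1.92 (adjusted p = 0.0295, edgeR) kept an adjusted p under 0.05 in 2 of 10 leave-one-out fits, whereas *Gzma*, *Itga1* and *Nnt* kept it in 10 of 10.

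The nearest tested genes on either side of *Emb* differed less. *Parp8*, 0.366 Mb before it, had 167 ± 7.11 CPM in *Ncr1+/+* and 145 ± 9.33 CPM in *Ncr1gfp/gfp* ILC1s, with no overlap and -0.20 on the log2 scale (adjusted p = 0.139 in edgeR). *Mrps30*, 1.16 Mb beyond it, was 0.14 higher on the log2 scale (adjusted p = 0.780 in edgeR). For *Bsg* the nearest tested genes were *Gzmm* and *Polrmt*, for *Slc16a1* they were *Lrig2* and *Fam19a3*, and for *Slc16a3* they were *Fasn* and *Csnk1d*. Their log2 fold changes were 0.25, -0.16, 0.22, 0.17, -0.05 and 0.06, and none had an adjusted p under 0.265 in edgeR's test.

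**Figure D4:**
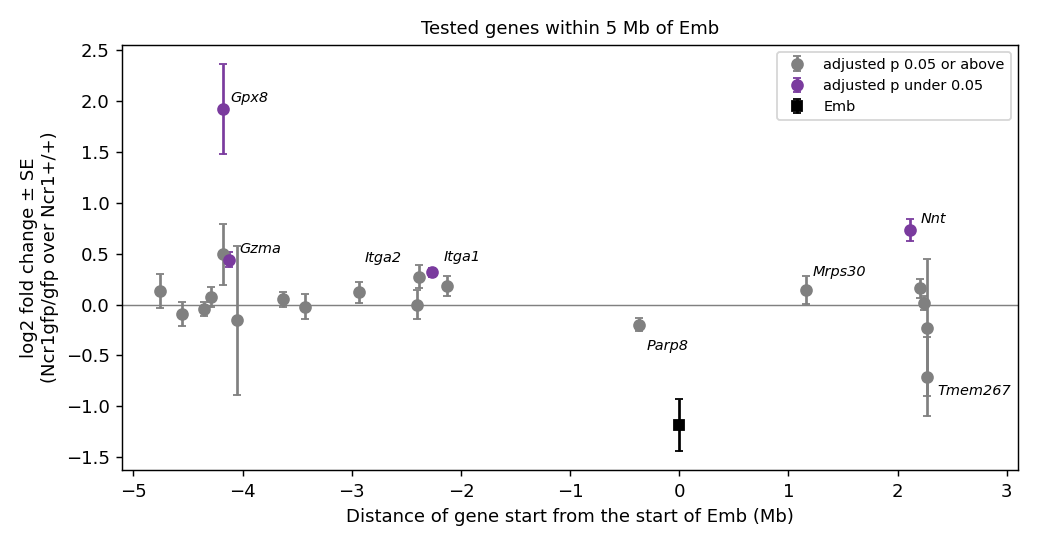
Log2 fold change with its standard error of the 22 other tested genes within 5 Mb of *Emb*, against the distance of their start from that of *Emb* in Mb. *Emb* lies at -1.18, while *Gpx8*, *Gzma*, *Itga1* and *Nnt*, the genes with an adjusted p under 0.05, lie between 0.32 and 1.92.

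Lactate is made from pyruvate by lactate dehydrogenase, and pyruvate that is not reduced enters mitochondria through the pyruvate carrier. Of 30 further genes of lactate and pyruvate handling, 16 were tested and 0 had an adjusted p under 0.05 in edgeR's quasi-likelihood test, in DESeq2 or in limma-voom, where 1.35% of all tested genes did in edgeR's test. At an unadjusted p under 0.05 it was 1 gene in each of the 3 tools, *Slc16a10*. Their median log2 fold change was 0.01, against 0.00 over all tested genes, with 8 genes above and 8 below 0. *Ldha*, the main lactate dehydrogenase subunit of glycolytic cells, had 141 ± 5.19 CPM in *Ncr1+/+* and 140 ± 7.77 CPM in *Ncr1gfp/gfp* ILC1s (SD, n = 5 each). Its difference on the log2 scale was -0.0046 with an SE of 0.06. *Ldhb* was at 4.24 ± 0.374 and 4.58 ± 1.36 CPM. For *Pdha1*, a subunit of pyruvate dehydrogenase, the log2 fold change was -0.12 (adjusted p = 0.496 in edgeR), and for *Slc16a6* it was 0.08 (adjusted p = 0.819). The lactate receptor gene *Hcar1* and the sodium-coupled lactate transporter gene *Slc5a8* had 0 reads in every library, and a count of 0 allows up to 3 counts, or 0.132 to 0.190 CPM by library.

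Of 19 genes of glycolysis and glucose uptake, 17 were tested and 0 had an adjusted p under 0.05 in edgeR's quasi-likelihood test. Of all 11463 tested genes, 1.35% did in edgeR's test, 312 genes did in DESeq2 and 167 in limma-voom. At an unadjusted p under 0.05 it was 2 genes, *Hk3* and *Slc2a1*. DESeq2 placed 1 gene, *Hk3*, under an adjusted p of 0.05, and limma-voom 0, with 4 at an unadjusted p under 0.05. Below 0 were 15 of the 17 log2 fold changes, where 49.3% of all tested genes were, and the median was -0.14. The most abundant genes of the list lay near 0. *Hk1*, *Aldoa*, *Slc2a3* and *Pkm* had 280, 271, 222 and 185 CPM in *Ncr1+/+* ILC1s and log2 fold changes of 0.03, 0.00, -0.09 and -0.03. The 3 values below -1 were of *Aldoc*, *Hk2* and *Hk3*, with 1.23, 2.29 and 7.58 CPM in *Ncr1+/+* ILC1s. *Gapdh*, *Pgk1* and *Pgam1* were counted at 5.04 CPM or less in *Ncr1+/+* ILC1s and *Eno1* at 0 reads. These genes have near-identical copies in the genome, and reads that fit more than one place are not counted by default, so their counts are uncertain.

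Basigin also binds proteins other than transporters, among them cyclophilins, integrins, CD44 and the CD98 heavy chain (*Slc3a2*). Of 17 such partners of basigin or embigin, 16 were tested and 0 had an adjusted p under 0.05 in edgeR's quasi-likelihood test or in limma-voom. In DESeq2 it was 1, *Cd44*. Over all 11463 tested genes it was 1.35% in edgeR's test and 312 genes in DESeq2. At an unadjusted p under 0.05 were 2 genes in each tool, *Cd44* and *Slc7a5*. *Cd44*, a hyaluronan receptor, had 565 ± 25.7 CPM in *Ncr1+/+* and 486 ± 37.9 CPM in *Ncr1gfp/gfp* ILC1s (SD, n = 5 each). Its genotypes did not overlap, its difference was -0.22 on the log2 scale (SE 0.06), and its adjusted p of 0.0527 in edgeR's test was just over the threshold. *Itgb1*, *Atp2b4* and *Atp2b1* had 619, 613 and 251 CPM in *Ncr1+/+* ILC1s and log2 fold changes of -0.04, 0.07 and -0.04. *Slc3a2* was at 133 ± 6.75 and 131 ± 9.78 CPM. *Ppia*, cyclophilin A, was counted at 1.42 CPM and has many processed copies, so its count is uncertain too.

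Transcription of *Slc16a3* is known to respond to HIF-1 and that of *Slc16a1* to MYC. Of 12 such regulators, 11 were tested and 0 had an adjusted p under 0.05 in edgeR's quasi-likelihood test or in limma-voom. In DESeq2 it was 1, *Myc*. Over all 11463 tested genes it was 1.35% in edgeR's test and 312 genes in DESeq2. At an unadjusted p under 0.05 it was 1 gene in edgeR's test and 2 in limma-voom. *Myc*, the gene in edgeR's test, had 87.8 ± 10.4 CPM in *Ncr1+/+* and 71.1 ± 6.53 CPM in *Ncr1gfp/gfp* ILC1s (SD, n = 5 each), or -0.30 on the log2 scale (adjusted p = 0.0902 in edgeR). *Hif1a* had 94.1 ± 5.13 and 98.7 ± 7.33 CPM, and its partner *Arnt* 127 ± 8.42 and 129 ± 10.1 CPM. *Hif1an*, *Max* and *Egln1* had log2 fold changes of -0.07, -0.10 and 0.02. *Egln3*, a HIF-1 target that limits HIF-1, was at 0.828 and 0.364 CPM, too low for a difference of -1.20 on the log2 scale (SE 0.77) to be told from 0.

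**Figure D5:**
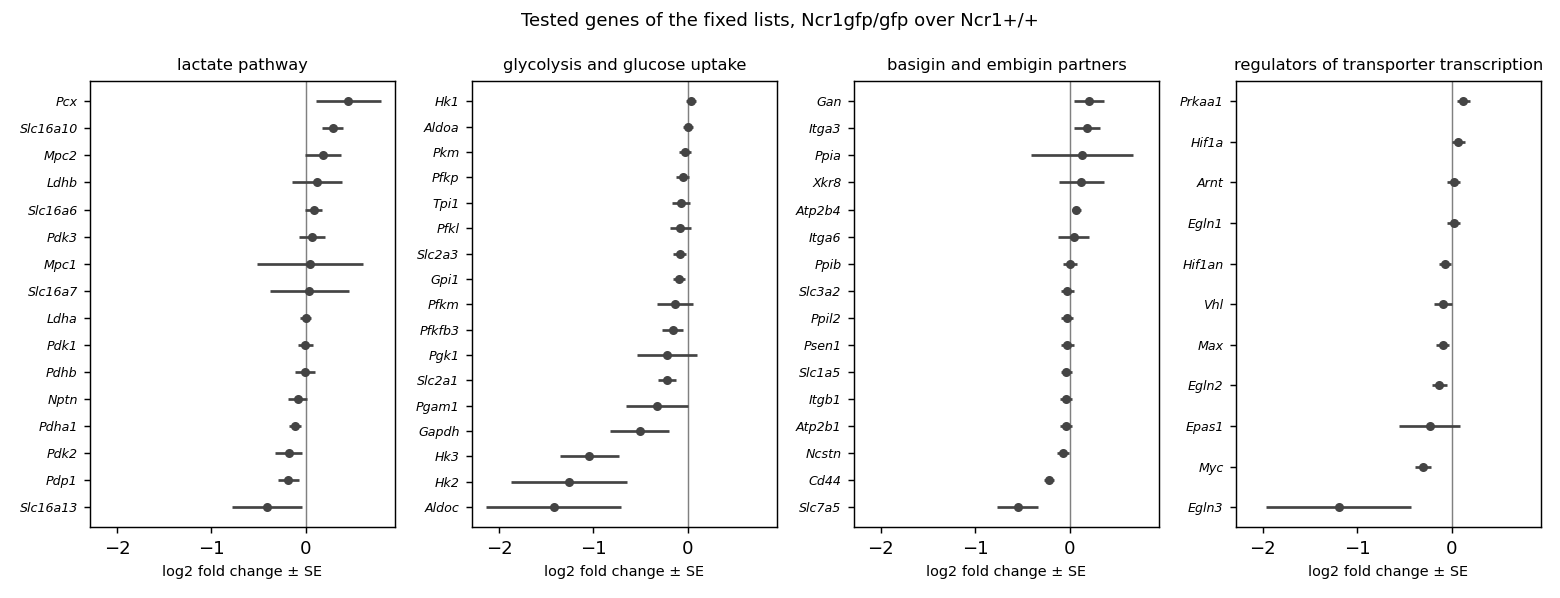
Log2 fold change with its standard error of each tested gene of the lists of lactate and pyruvate handling, glycolysis, partners of basigin or embigin, and regulators. *Ldha* (-0.0046) and *Hk1* (0.03) lie near 0, while other well-counted genes, such as *Cd44* (-0.22), *Myc* (-0.30) and *Slc16a10* (0.28), lie off it. The values farthest from 0 belong to genes with few counts, such as *Aldoc* and *Egln3*.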

How the data were processed

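By the study's methods, the authors trimmed single reads of 51 cycles from SMART-Seq v4 cDNA, mapped them to mm10 (STAR 020201) and ran HTSeq 0.6.0 at its defaults to get counts for each gene. These counts were deposited by the authors without normalization, with gene coordinates and exon lengths. The coordinates are not those of mm10: none of the 4 members starts where GRCm38.p6 places it, although 9 genes around *Emb* have the same order in both. Symbols of 4 of 4 members and 23924 of 24564 genes matched RefSeq. Genes were filtered with filterByExpr (11463 kept), normalized by TMM and tested in edgeR 4.0.16 (R 4.3.3) with its quasi-likelihood F-test, with no covariates and Benjamini-Hochberg adjustment over all tested genes. Standard errors were taken from the F statistic. DESeq2 1.42.0 and limma 3.58.1 were alternatives. Total counts of 15796253 to 22623133 set 3 counts at 0.132 to 0.190 CPM, counting error only. Library pairs of a genotype differed by more than sampling noise (chi-square per gene of 9.26 or more). Steps were tested on simulated data. The members and lists were chosen with earlier results of these data known. Named genes are the members, the 4 most abundant and any significant genes of each list, neighbours of the members and the genes most like *Emb*. *Hk3*, *Slc2a1*, *Aldoc*, *Hk2*, *Gapdh*, *Pgk1*, *Pgam1*, *Eno1*, *Ldhb*, *Hcar1*, *Slc5a8*, *Slc16a7*, *Slc16a10*, *Slc16a13*, *Slc3a2*, *Slc7a5*, *Ppia*, *Myc*, *Hif1a*, *Egln3*, *S100a8* and *S100a9* were named after their values were seen. So were the genes at an adjusted p under 0.05 near *Bsg* and *Slc16a3*. No protein or promoter sequences were used here.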

Additional observations from a re-analysis of the deposited data

Results flagged for a closer look

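Each genotype's 5 libraries were examined for a single library far from the rest, by dividing its distance from the next library by the whole spread of the genotype, in 140 groups of values of the genes named here and of total counts. Of these, 8 passed the limit of 0.71, where 7 would by chance. *Emb* was 35.0 CPM in *Ncr1+/+* replicate 1, against 24.7 CPM in the next *Ncr1+/+* library. Among *Ncr1gfp/gfp* libraries, replicate 1 had 59.9 CPM of *Itga2* against 48.9 CPM in the next, 48.3 CPM of *Slc2a1* against 41.6 CPM, and 94.3 CPM of *Egln1* against 111 CPM in the next lowest. The hepatocyte gene *Alb* was 28.0 CPM in *Ncr1+/+* replicate 1, against 4.69 CPM in the next, and 38.0 CPM in *Ncr1gfp/gfp* replicate 3, against 3.75 CPM. *Ncr1gfp/gfp* replicate 3 also had 5.19 CPM of *Apoa1*, another hepatocyte gene, against 1.14 CPM in the next. *Xist* was 1.07 CPM in *Ncr1gfp/gfp* replicate 5, against 0.159 CPM in the next.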

How the results depend on the processing

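Over the fits that left out each library in turn, the log2 fold change was between -1.45 and -0.97 for *Emb*, -0.0013 and 0.14 for *Bsg*, -0.0023 and 0.75 for *Slc16a1* and -0.46 and -0.28 for *Slc16a3*. *Bsg* changed sign without *Ncr1+/+* replicate 1 and *Slc16a1* without *Ncr1gfp/gfp* replicate 3. In these fits between 60 and 98 genes were called over all tested genes and between 100 and 160 had an adjusted p under 0.05, with 102 without *Ncr1+/+* replicate 1 and 100 without *Ncr1+/+* replicate 3, against 155. They held 0 lactate pathway genes, 0 to 1 glycolysis genes, 0 to 1 partner genes and 3 to 4 genes within 5 Mb of *Emb*. Without the 2 libraries with the most hepatocyte RNA, chosen after the data were examined, *Emb* had -0.94 and was not called, *Slc16a1* changed to -0.28, 95 genes had an adjusted p under 0.05 and so did 1 partner gene, *Cd44*. Without a filter on low counts, 131 genes were called, 264 had an adjusted p under 0.05, and so did 1 glycolysis gene and 1 partner gene. With at least 10 counts in every library it was 1 partner gene, and *Slc16a1* was not tested. DESeq2 gave 312 genes at an adjusted p under 0.05, with 1 glycolysis gene and 1 partner gene. A window of 2 Mb around *Emb* held 2 tested genes and 0 at an adjusted p under 0.05 in edgeR's test, and *Emb*'s nearest such gene was 2.11 Mb away. As TPM, in *Ncr1+/+* and *Ncr1gfp/gfp* ILC1s, *Emb* had 30.8 and 13.8, *Bsg* 168 and 179, *Slc16a1* 2.00 and 2.45, and *Slc16a3* 14.9 and 11.8, in the same order. The cause of these changes was not tested.

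Replicate numbers are shared by the genotypes. Deviations of same-numbered libraries from their genotype means correlated between -0.02 and 0.04 over the tested genes. These values cannot decide whether the samples were handled in pairs. With the replicate number as a block, the log2 fold change of *Emb* was -1.30 with an SE of 0.20, against -1.18 and 0.25 without it. With the block 87 genes were called in place of 84. The block kept *Gzma*, *Itga1* and *Nnt* at an adjusted p under 0.05 and lost *Gpx8*.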
